A study of Mus musculus with 4 samples.

Results

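The heat shock and DnaJ chaperone genes were followed in testis RNA of *Parp1* knockout and control mice. Every gene of the count table whose name begins with Hspa, Hspb, Hspd, Hspe, Hsph, Hsp90, Dnaja, Dnajb or Dnajc was taken, with names that contain -ps left out, which gave 75 of 25683 genes. By name they were 13 Hspa genes (the HSP70 family), 10 Hspb genes (the small heat shock proteins), 3 Hspd or Hspe genes (the mitochondrial chaperonin), 1 Hsph gene (HSP105), 3 Hsp90 genes, and 4 Dnaja, 13 Dnajb and 28 Dnajc genes, which share the J domain. A name is not a function: the Hspb prefix also takes in *Hspbp1* and *Hspbap1*, whose proteins bind to HSP70 and to HSPB1, and *Hspb11*, which encodes the intraflagellar transport protein IFT25. Small HSP-like genes with other names, *Odf1* and *Cryab*, are not among the members. *Hspa2*, *Hspa1l* and *Hspa4l*, which are known from the testis, were set against the other 72.

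HSP70 proteins hold unfolded stretches of other proteins in cycles of ATP binding and hydrolysis. J-domain proteins bring them their clients and start the hydrolysis, nucleotide exchange factors reset them, and HSP90 takes over a part of the clients at a later stage of folding. Small heat shock proteins keep unfolded proteins from aggregating without using ATP. In most tissues the heat shock factor HSF1 raises a subset of these genes under stress, by binding to heat shock elements, which are inverted repeats of GAA. Male germ cells, which in mice develop below body temperature, use in addition several chaperone genes that are known mainly from the testis. *Hspa2* is an HSP70 of meiotic cells that mouse spermatocytes need to complete meiosis, *Hspa1l* is an HSP70 of spermatids, and *Hspa4l* belongs to the HSP110 relatives of HSP70.

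The RNAseq data come from 4 libraries, 2 of *Parp1* knockout testis and 2 of control (wild-type) testis. The knockout mice carry a neo cassette in the second exon of *Parp1* (allele *Parp1* tm1Zqw, made in 129S mice and crossed to C57Bl/J over several generations). The allele acts in every cell of the animal, and *Parp1* mRNA is still present: it was at 24.1 and 22.1 CPM (reads relative to the library size, scaled by TMM) in the knockout libraries, against 86.4 and 86.0 CPM in the control libraries. The titles of the knockout samples carry the name of a *Parg* line, while their genotype label reads PARP1ko, and the genotype label was followed. No label gives the age of the mice or says that the libraries came from separate animals, so all p-values measure only the spread between these libraries. The columns of both knockout libraries have the same heading, so they are told apart here by depth, as the larger knockout library (21821073 reads on exons) and the smaller (18103863 reads). The control libraries held 20449210 and 23503503 reads.

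The tissue label was checked against marker genes. All 7 spermatocyte, 7 round spermatid, 8 elongating spermatid, 7 Sertoli cell and 7 Leydig cell markers were detected in all 4 libraries, and none of 6 epididymis markers was detected in all of them. Over all genes tested the root mean square difference was 0.46 log2 units between the knockout libraries and 0.26 between the control libraries. The summed level of the elongating spermatid markers, such as the protamine genes *Prm1* and *Prm2*, was 79045 TPM in the larger knockout library and 44359 TPM in the smaller, against 66782 and 68565 TPM in the control libraries. All 8 of these markers were above both control libraries in the larger knockout library and below both in the smaller. The Leydig cell markers summed to 2457 TPM in the larger and 8111 TPM in the smaller knockout library, against 3010 and 3746 TPM in the control libraries. Most of that sum was *Insl3*, and the other 6 markers summed to 510 and 810 TPM in the knockout libraries, against 706 and 880 TPM in the control libraries. TPM, which relates reads to exon length and library size, is used here wherever levels of different genes are compared. In RNA of a whole tissue, fewer cells of a type and less RNA per cell cannot be told apart.

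Promoters of 3 HSP70 genes are given as examples, and those of *Hspa2* and *Hspa4l* are not shown. The 250 bases upstream of the RefSeq start (build GRCm38.p6) were read for *Hspa1l* and its neighbours *Hspa1a* and *Hspa1b*, the main heat-inducible HSP70 genes. All 3 lie on chromosome 17, and *Hspa1l* and *Hspa1a* stand head to head with 546 bases between their starts. Capitals mark GAANNTTC or TTCNNGAA, the core of a heat shock element, searched on both strands.
Hspa1l, chr17:34972453-34972702, plus strand: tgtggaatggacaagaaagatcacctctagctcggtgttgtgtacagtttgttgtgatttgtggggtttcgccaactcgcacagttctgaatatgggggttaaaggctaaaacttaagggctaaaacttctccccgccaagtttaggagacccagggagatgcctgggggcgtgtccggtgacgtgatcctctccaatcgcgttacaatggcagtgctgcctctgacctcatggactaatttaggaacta
Hspa1a, chr17:34972157-34972406, minus strand: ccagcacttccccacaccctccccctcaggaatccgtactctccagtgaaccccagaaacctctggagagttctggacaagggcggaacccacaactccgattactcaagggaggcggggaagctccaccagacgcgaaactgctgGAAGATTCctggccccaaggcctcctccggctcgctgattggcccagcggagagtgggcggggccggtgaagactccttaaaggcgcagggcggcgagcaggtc
Hspa1b, chr17:34959239-34959488, minus strand: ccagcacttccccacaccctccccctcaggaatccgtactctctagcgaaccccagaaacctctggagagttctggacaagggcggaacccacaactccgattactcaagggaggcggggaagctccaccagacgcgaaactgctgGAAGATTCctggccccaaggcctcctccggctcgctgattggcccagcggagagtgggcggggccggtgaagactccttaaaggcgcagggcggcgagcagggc
The *Hspa1a* and *Hspa1b* windows were identical at 247 of 250 bases, and each held the letters GAAGATTC, ending 97 bases before the start. The *Hspa1l* window held neither core. The *Hspa1a* match lies in the stretch between the starts of *Hspa1a* and *Hspa1l*, outside the *Hspa1l* window. No match says only that these letters are not in this window.

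Of the 75 members, 60 had a window in the RefSeq table. GAANNTTC was found in the windows of 11 of these 60 genes (18.3%), against 7.73% of 27025 genes. The other core, TTCNNGAA, was found in 6 of the 60 (10%), against 8.11% of all genes. The longer element GAANNTTCNNGAA, which contains both, was in the windows of *Dnajb6*, *Hspd1* and *Hspe1*, 3 of the 60 (5.0%), against 0.51% of all genes. Related genes were counted separately. *Hspd1* and *Hspe1* stand head to head, with annotated ends that overlap by 112 bases, and whether their windows share an element was not checked. *Hspa1a* and *Hspa1b*, with nearly identical windows, are both among the 11. For the heat-inducible genes *Hspe1*, *Hspb1* and *Hsph1* and the J-domain gene *Dnajb6*, 30 bases around the match are shown, since their RNA is described below.
Hspe1, chr1:55088050-55088079, plus strand: cacggtccgTTCTAGAACCTTCcggaaggc
Hspb1, chr5:135887791-135887820, plus strand: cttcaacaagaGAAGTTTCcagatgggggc
Hsph1, chr5:149636351-149636380, minus strand: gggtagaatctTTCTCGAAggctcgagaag
Dnajb6, chr5:29735843-29735872, plus strand: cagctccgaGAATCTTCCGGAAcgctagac
In *Hspe1* the capitals mark the longer element, read on the opposite strand, which ended 77 bases before the start. In *Dnajb6* they mark it on the strand shown. The *Hspb1* match ended 110 bases before the start. A match is a description of the letters and was not tested as a binding site.

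The members covered a wide range of levels. Over the 4 libraries 4 members averaged 1000 TPM or more, 21 averaged 100 to 1000 TPM, 36 averaged 10 to 100 TPM, 9 averaged 1 to 10 TPM and 5 were below 1 TPM. All members together made up 1.57 and 1.43% of all TPM in the knockout libraries, against 1.48 and 1.47% in the control libraries.

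**Figure D1:**
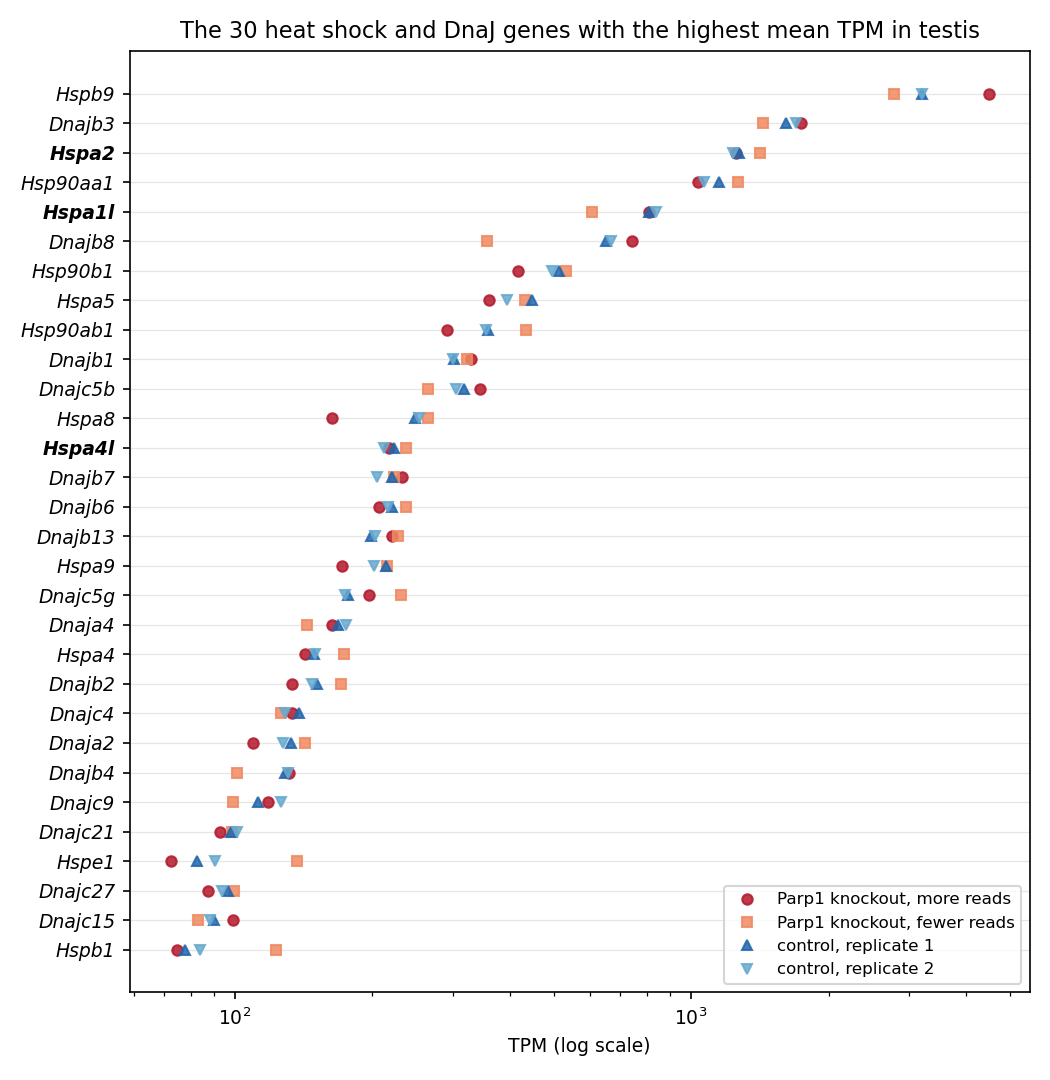
TPM (log scale) of the 30 members with the highest mean, one row a gene and one point a library, with the larger (more reads) and smaller (fewer reads) knockout library and both control libraries. The testis HSP70 genes are in bold, the points of most genes lie close together, and *Dnajb8* (740 and 357 TPM) and *Hspe1* (72.3 and 137 TPM) spread widest between the knockout libraries.

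The genes at the top were genes known from male germ cells. *Hspb9*, a small heat shock protein gene of the testis, was the highest member, with 4491 and 2779 TPM in the knockout libraries and 3208 and 3209 TPM in the control libraries. By mean TPM it ranked 16 among all genes in knockout testis and 20 in control testis. *Dnajb3*, a J-domain gene of spermatids, had 1740 and 1434 TPM in knockout and 1611 and 1699 TPM in control testis. *Hsp90aa1*, the HSP90 form that is inducible elsewhere and abundant in germ cells, had 1033 and 1264 TPM in knockout and 1151 and 1065 TPM in control testis.

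*Hspa2* held place 3 among the members in every library. It had 1253 and 1414 TPM in knockout testis, against 1270 and 1235 TPM in control testis. *Hspa1l* held place 5 in every library, with 808 and 607 TPM in knockout testis, against 810 and 836 TPM in control testis. *Hspa4l* held place 13 or 14, with 218 and 237 TPM in knockout testis and 224 and 213 TPM in control testis. On this scale the groups overlapped for *Hspa2* and *Hspa4l*. For *Hspa1l* the larger knockout library was level with the control libraries, and the smaller was the lowest of the 4.

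The median of the 3 testis forms was above the median of the other 72 members in each library. It was 808 TPM against 48.3 TPM in the larger knockout library and 607 against 62.4 TPM in the smaller. In the control libraries it was 810 against 56.7 TPM and 836 against 53.2 TPM. On the scale of log2(TPM + 0.1) the differences of the medians were 4.06 and 3.28 in knockout and 3.83 and 3.97 in control testis. These are levels of different genes in the same libraries, so no test was made. In every library the median of the 3 testis forms was the value of *Hspa1l*. The smallest of the differences, in the smaller knockout library, therefore combines the lowest *Hspa1l* with the highest median of the other members. That library also had the lowest elongating spermatid markers, whose part in these values was not tested.

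Within the HSP70 family the testis forms made up most of the mRNA pool. They took 71.5 and 66.0% of the summed Hspa TPM in knockout testis, against 67.03 and 67.98% in control testis. *Hspa2* alone took 39.3 and 41.3% in knockout and 37.0 and 36.8% in control testis. *Hspa1l* took 25.4 and 17.7% in knockout and 23.6 and 24.9% in control testis. The knockout libraries thus lay on both sides of the control libraries for *Hspa1l* and above them for *Hspa2*. The constitutive forms came next: *Hspa5* (BiP, the HSP70 of the endoplasmic reticulum) took 11.3 to 13.02% over the 4 libraries, and *Hspa8* (HSC70 of the cytosol) took 5.14 and 7.75% in knockout and 7.22 and 7.53% in control testis. The heat-inducible pair *Hspa1a* and *Hspa1b* took 0.355 and 0.449% in knockout, against 0.329 and 0.339% in control testis.

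**Figure D2:**
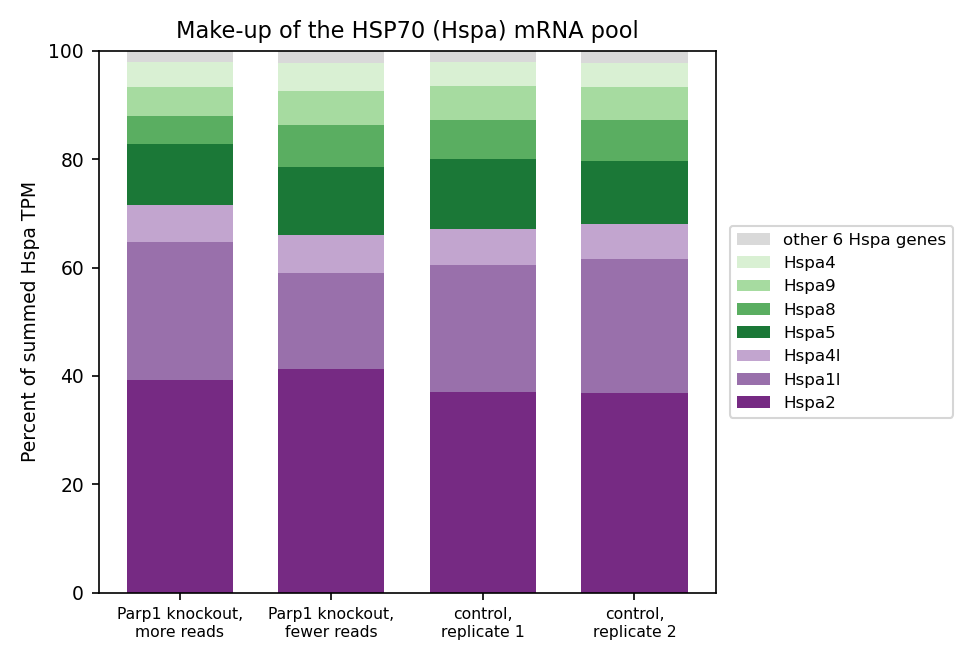
Share of the summed TPM of the 13 Hspa genes in each library, in percent, with the testis forms in purple, 4 constitutive genes in green and the other 6 in grey. *Hspa2*, *Hspa1l* and *Hspa4l* make up 66.0 to 71.5% of each bar.

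Several other families were led by genes known from germ cells as well, of which *Hsp90aa1* is also counted here among the heat-inducible genes. *Hspb9* made up 94.9 and 89.9% of the Hspb pool in knockout testis, against 92.5 and 92.4% in control testis. That pool is set by name and leaves out the small HSP-like testis gene *Odf1*. *Odf1* had 3942 and 2350 TPM in knockout, against 3363 and 3238 TPM in control testis. *Hsp90aa1* made up 59.3 and 56.7% of the Hsp90 pool in knockout, against 56.9 and 55.6% in control testis. *Dnajb3*, *Dnajb7*, *Dnajb8* and *Dnajb13* together made up 73.7 and 67.6% of the Dnajb pool in knockout, against 71.998 and 72.97% in control testis. *Dnajb13* is a component of the radial spoke of the sperm flagellum, and *Dnajb8* encodes a J-domain protein that keeps other proteins from aggregating. *Dnajc5b* and *Dnajc5g*, which encode the testis forms of cysteine string protein, made up 34.7 and 31.0% of the Dnajc pool in knockout and 30.8 and 30.4% in control testis.

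Knockout was then compared with control for each gene by edgeR's quasi-likelihood test on the deposited counts, with Benjamini-Hochberg adjustment over 15834 genes tested. Of the members 72 had enough reads to be tested. Those left out include *Hspb2* (a muscle gene, with 11 and 2 reads in knockout and 6 and 7 in control testis) and *Hspb3* (also of muscle, with 2 and 0 reads in knockout and 1 and 1 in control testis). None of the 72 members passed an adjusted p of 0.05, against 15 of all genes tested (0.0947%). At an unadjusted p under 0.05 there were 6 of 72 members (8.33%), against 7.79% of all genes. These were 3 members higher in knockout, against 3.57% of all genes, and 3 lower, against 4.23%. DESeq2 called 0 members (0.908% of all genes), as did limma voom (0.0695%), limma on log2(TPM + 0.1) (0.549%) and edgeR restricted to genes with 10 reads in every library (0.0736%). Without TMM or without a filter edgeR also called 0 members (0.259 and 0.27% of all genes). Its likelihood ratio test called 1, *Dnajc22*, where it called 2.36% of all genes.

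The median log2 fold change of knockout over control was 0.02 over the members and 0.01 over all genes tested, and 39 members were above 0 (54.2%, against 51.6% of all genes) and 33 below. For 56 of the 72 the estimate lay between -0.2 and 0.2 (77.8%, against 62.1%), and for 64 the 95% interval lay within -1 and 1 (88.9%, against 72.5%). For 37 it lay within -0.5 and 0.5 (51.4%, against 38.3%). For the other members the interval left room for larger differences at this number of libraries. The shares of all genes given here and below were not matched for expression level. Members other than the testis forms had a median of 48.3 to 62.4 TPM per library, against 10.3 to 13.7 TPM over all genes tested. In scaled CPM, both knockout libraries were above both control libraries for 17 members (23.6%, against 17.9% of all genes) and below both for 12 (16.7%, against 19.2%).

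By family, the median log2 fold change was -0.01 over 13 Hspa genes, 0.11 over 8 Hspb genes, -0.02 over 4 Dnaja genes, 0.04 over 13 Dnajb genes and 0.00 over 28 Dnajc genes. The 4 Dnaja genes, general partners of HSP70, had estimates between -0.12 and 0.07. *Dnaja1*, a partner of HSP70 in the cytosol, had 67.3 and 86.5 TPM in knockout and 73.9 and 73.9 TPM in control testis. *Dnajb6*, an anti-aggregation J-domain gene whose element is shown above, had 207 and 237 TPM in knockout and 221 and 216 TPM in control testis, with a log2 fold change of 0.04 (interval -0.25 to 0.33). *Hspa4*, the ubiquitous relative of *Hspa4l*, had 143 and 174 TPM in knockout and 149 and 150 TPM in control testis, with a log2 fold change of 0.10 (interval -0.17 to 0.36). Estimates ranged from -0.23 to 0.53 over the Hspa genes from -0.18 to 0.27 over the Dnajb genes, from -0.69 to 1.62 over the Hspb genes and from -3.45 to 0.52 over the Dnajc genes, where the lowest value is that of *Dnajc22*, fitted to very few reads.

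Of the testis HSP70 genes, *Hspa2* had a log2 fold change of 0.11 (SE 0.14, 95% interval -0.23 to 0.46) with an adjusted p of 0.934 by edgeR's quasi-likelihood test. In scaled CPM it was at 1630 and 1477 in knockout and 1450 and 1427 in control testis, so both knockout libraries were above both control libraries, by a margin that did not pass the test. *Hspa1l* had a log2 fold change of -0.17 (SE 0.25, interval -0.79 to 0.46, adjusted p of 0.945 by the same edgeR test). Its scaled level was 983 and 592 CPM in knockout, against 864 and 903 CPM in control testis, one knockout library above and the other below both control libraries. *Hspa4l* had a log2 fold change of 0.09 (SE 0.14, interval -0.26 to 0.43, adjusted p of 0.951 by the same edgeR test), with 1037 and 906 CPM in knockout and 934 and 897 CPM in control testis.

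The germ cell members outside the HSP70 family gave similar estimates. *Hspb9* had a log2 fold change of 0.25 (SE 0.32, interval -0.56 to 1.05), *Dnajb3* of -0.01 (SE 0.22, interval -0.55 to 0.52) and *Dnajb8* of -0.18 (SE 0.42, interval -1.22 to 0.86). The intervals of *Hspb9* and *Dnajb8* were among the widest of the abundant members. *Dnajb13* was at 0.19 (interval -0.14 to 0.51) and *Dnajb7* at 0.13 (interval -0.24 to 0.50). *Dnajc5g* stood out in its unadjusted p of 0.022, with a log2 fold change of 0.30 (SE 0.10, interval 0.06 to 0.54) and an adjusted p of 0.497 by edgeR's quasi-likelihood test. It had 196 and 231 TPM in knockout, against 177 and 174 TPM in control testis, with no overlap. Its relative *Dnajc5b* was at 0.02 (interval -0.55 to 0.59), a sign that turned without TMM and under limma voom.

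The heat-inducible HSP70 genes were among the lower members. *Hspa1a* had 6.19 and 7.16 TPM in knockout, against 7.31 and 6.26 TPM in control testis, a log2 fold change of 0.00 (SE 0.18, interval -0.44 to 0.43) whose sign turns with the scaling. *Hspa1b* had 5.12 and 8.20 TPM in knockout, against 4.01 and 5.14 TPM in control testis, a log2 fold change of 0.53 (SE 0.24, interval -0.06 to 1.12, adjusted p of 0.710 by edgeR's quasi-likelihood test). The promoter windows of both genes are nearly identical, while their exons were not compared. In the control libraries only 72.02 and 68.75% of the *Hspa1a* reads and 83 and 76.51% of the *Hspa1b* reads were unique to one place. Where the other reads also map was not examined. The values of this pair are uncertain for that reason.

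*Hspb1* (HSP27) had 74.6 and 123 TPM in knockout, against 77.6 and 84.0 TPM in control testis, with a log2 fold change of 0.28 (SE 0.16, interval -0.12 to 0.68). *Hspe1* (HSP10, the lid of the mitochondrial chaperonin) had 72.3 and 137 TPM in knockout, against 82.5 and 90.5 TPM in control testis, with a log2 fold change of 0.25 (SE 0.21, interval -0.27 to 0.78). For both, the smaller knockout library was the highest of the 4. *Hspd1* (HSP60), whose gene stands head to head with *Hspe1*, had 38.3 and 63.5 TPM in knockout and 56.3 and 54.7 TPM in control testis, with a log2 fold change of -0.13 (SE 0.15, interval -0.51 to 0.24). *Hsph1* (HSP105) was at 0.09 (interval -0.30 to 0.48), *Dnajb1* (HSP40) at 0.15 (interval -0.23 to 0.53) and *Hspa8* at -0.23 (interval -0.61 to 0.15). The immediate early genes, which respond to handling of tissue, summed to 27.2 TPM in the larger and 56.5 TPM in the smaller knockout library, against 28.3 and 40.6 TPM in the control libraries. Their part in the values of *Hspb1*, *Hspe1* and *Hsph1* was not tested.

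The chaperones of the endoplasmic reticulum and of mitochondria had log2 fold changes between -0.15 and 0.25. Among 11 of them 3 estimates were above 0 and 8 below, with a median of -0.05. *Hspa5* had 360 and 433 TPM in knockout, against 448 and 395 TPM in control testis. *Hsp90b1* (GRP94, the HSP90 of the endoplasmic reticulum) had 418 and 533 TPM in knockout, against 513 and 496 TPM in control testis. Their log2 fold changes were both -0.07, with intervals of -0.39 to 0.25 and -0.37 to 0.22. *Hspa9* (mortalin, the HSP70 of mitochondria) was at -0.10 (interval -0.36 to 0.17), *Dnajb11* at 0.06 (interval -0.17 to 0.30) and *Dnajc3*, an inhibitor of stress kinases, at -0.05 (interval -0.29 to 0.20).

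The members with the smallest unadjusted p included several genes of low level. *Hspb8* (HSP22, which works with the co-chaperone BAG3) had 91 and 213 reads in the knockout libraries, against 41 and 72 in the control libraries. That is 5.03 and 15.5 TPM in knockout and 2.54 and 3.83 TPM in control testis, with no overlap. The log2 fold change was 1.62 (SE 0.49, interval 0.40 to 2.84), with an unadjusted p of 0.018 and an adjusted p of 0.474 by edgeR's quasi-likelihood test, so it did not pass. The estimate was 2.13 without the larger knockout library and 0.83 without the smaller. *Bag3* itself had a log2 fold change of -0.06 (interval -0.40 to 0.28).

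*Hspb7*, a small heat shock protein gene of heart and muscle, had 19.2 and 14.8 TPM in knockout, against 28.7 and 28.2 TPM in control testis. Its log2 fold change was -0.69 (SE 0.23, interval -1.26 to -0.12), with an adjusted p of 0.526 by edgeR's quasi-likelihood test, and was -1.08 without the larger knockout library and -0.39 without the smaller. *Dnajc2*, which encodes a J-domain protein bound to ribosomes, had 63.4 and 85.3 TPM in knockout, against 94.7 and 91.2 TPM in control testis, with a log2 fold change of -0.32 (SE 0.10, interval -0.56 to -0.07). Both genes were lower in each knockout library than in each control library, and neither passed the adjusted threshold. *Dnajc25* had 9.99 and 11.5 TPM in knockout, against 6.78 and 8.39 TPM in control testis, with a log2 fold change of 0.52 (SE 0.16, interval 0.12 to 0.92). *Dnajc6* (auxilin, a clathrin uncoating factor of neurons) was below 1 TPM in each library, at 15 and 23 reads in knockout and 32 and 55 in control testis. *Dnajc22* had 2 and 0 reads in knockout, against 15 and 12 in control testis. It had the smallest unadjusted p of the members (0.011, adjusted p of 0.404 by edgeR's quasi-likelihood test), and its fitted log2 fold change of -3.45 depends on the prior count. Its ratio of depth-scaled reads was 0.083, with a counting interval of 0.0096 to 0.33 that covers counting error only.

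**Figure D3:**
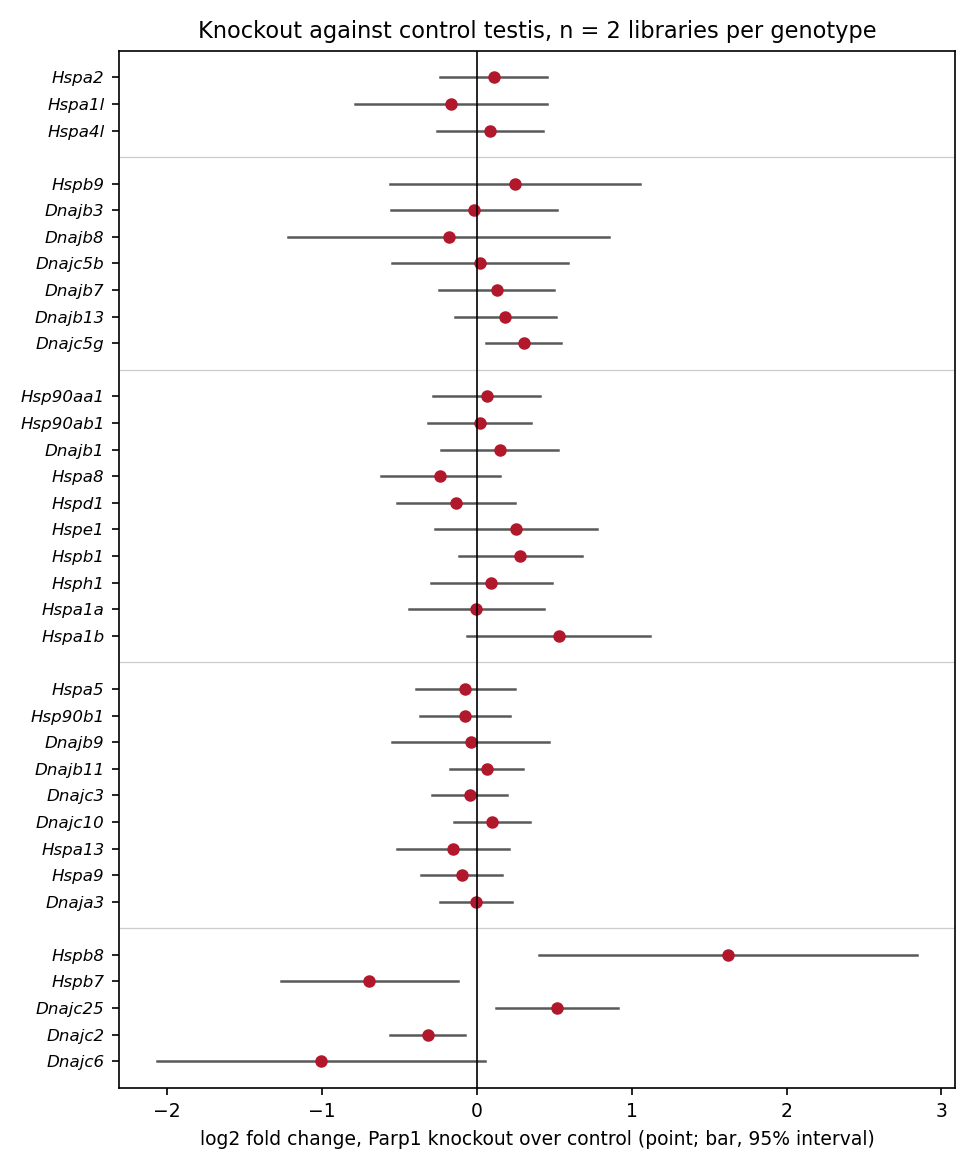
Log2 fold change of knockout over control (point) with its 95% interval (bar) from edgeR's quasi-likelihood fit, n = 2 libraries per genotype, for named members grouped from top to bottom as testis HSP70 genes, other germ cell genes, cytosolic and heat-inducible genes, organelle genes and those with the smallest p. Most intervals span 0, and those of *Hspb8*, *Hspb7*, *Dnajc25*, *Dnajc2* and *Dnajc5g* do not, with none past the adjusted threshold. *Dnajc22*, the member with the smallest unadjusted p by edgeR's quasi-likelihood test, is not drawn. Its interval was -5.76 to -1.14, fitted to very few reads.

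The knockout libraries departed from the control libraries in opposite directions for many members. In scaled CPM, 20 of 72 members (27.8%) were above both control libraries in the larger knockout library and below both in the smaller, against 15.4% of all genes tested. The reverse held for 9 members (12.5%), against 14.7% of all genes. The median size of the difference between the knockout libraries was 0.22 log2 units over the members and 0.24 over all genes. Between the control libraries it was 0.06 over the members and 0.10 over all genes. The difference was larger between the knockout libraries than between the control libraries for 52 of 72 members (72.2%), near the share of all genes (71.6%).

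Genes known from male germ cells made up a part of the 20. They included *Hspa1l*, *Hspb9*, *Dnajb3*, *Dnajb7*, *Dnajb8* and *Dnajc5b*. *Dnajb8* was 0.35 log2 units above the control mean in the larger knockout library and 1.02 below it in the smaller, a departure of -1.02. For *Hspb9* the departures were 0.67 in the larger and -0.34 in the smaller, and for *Hspa1l* they were 0.15 and -0.58. *Dnajb3* departed by 0.25 and -0.34 and *Dnajc5b* by 0.33 and -0.37. The pattern held for 1 of the 3 testis forms and for 5 of 10 other members known from the testis. *Hspa2* did not share it, at 0.18 and 0.04, nor did *Hspa4l*, at 0.18 and -0.02. *Dnajc5g* (0.34 and 0.26), *Dnajb13* (0.32 and 0.04), *Hsp90aa1* (0.08 and 0.05) and *Hspa5* (-0.04 and -0.10) did not either. *Hsph1*, also known from the testis, showed the reverse pattern. The elongating spermatid markers moved the same way as the germ cell genes named first, with median departures of 0.40 in the larger and -0.65 in the smaller knockout library. Round spermatid markers had median departures of 0.42 and -0.01 and spermatocyte markers of 0.17 and -0.07. In each of these lists 3 of 7 markers showed the pattern in full. The part of all these markers in the values of the members was not tested.

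The 9 members with the reverse pattern included *Hspe1*, *Hspd1*, *Hsph1* and *Hsp90ab1*, the constitutive cytosolic HSP90. *Hspe1* departed by -0.07 in the larger and 0.52 in the smaller knockout library, *Hsph1* by -0.11 and 0.27, and *Hspd1* by -0.35 and 0.06. Leydig cell markers had median departures of -0.35 and 0.25, Sertoli cell markers of -0.01 and 0.40 and macrophage markers of -0.29 and 0.30. The markers were not uniform: 4 of 7 Leydig cell, 2 of 7 Sertoli cell and 3 of 6 macrophage markers showed the reverse pattern in full. The Leydig cell genes *Cyp17a1* and *Cyp11a1* and the Sertoli cell gene *Rhox5* were below both control libraries in both knockout libraries, and 3 Sertoli cell markers were above both in both. Their part in the values of these members was not tested.

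**Figure D4:**
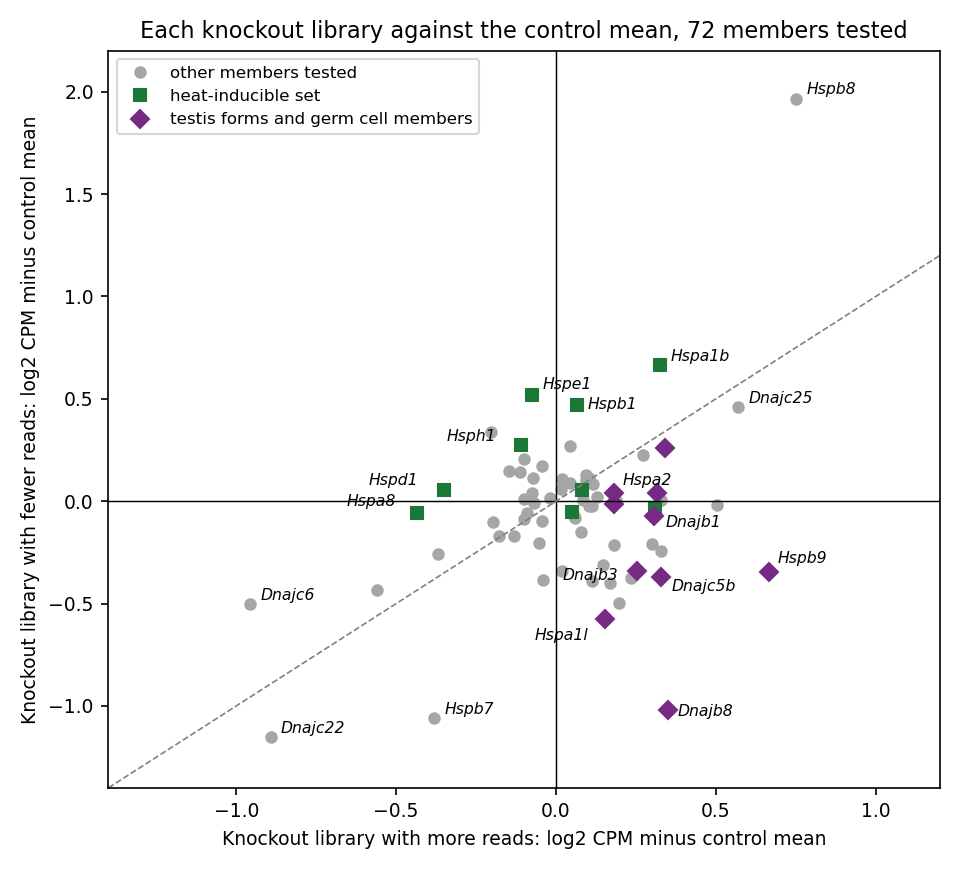
Log2 scaled CPM minus the control mean for 72 members, with the larger knockout library (more reads) on the x axis and the smaller (fewer reads) on the y axis. Both axes subtract the same control mean, the dashed line marks equal departures, and *Hspb9*, *Dnajb8*, *Dnajc5b*, *Dnajb3* and *Hspa1l* lie at lower right while *Hspe1* and *Hsph1* lie at upper left.

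Leaving out one knockout library changed the calls. With only the smaller knockout library against the control libraries, 24 of 72 members passed an adjusted p of 0.05 by edgeR's quasi-likelihood test, 8 higher and 16 lower, when 23.9% of all genes tested passed. With only the larger one 22 of 73 passed, 18 higher and 4 lower, when 17% of all genes passed. These fits take the lone knockout library to vary like the control libraries, so they compare that library with the controls. The shares of all genes in this paragraph were not matched for expression level. Of the members, 14 of 72 were called in both fits (19.4%, against 8.3% of 16076 genes tested in both). In opposite directions 9 were called (12.5%, against 3.48% of all genes): *Dnajb3*, *Dnajb4*, *Dnajb8*, *Dnajb9*, *Dnajc15*, *Dnajc18*, *Dnajc5b*, *Hspa1l* and *Hspb9*. The 5 called in the same direction (6.94%, against 4.83% of all genes) were *Hspb8*, *Dnajc25* and *Dnajc5g*, higher in knockout, and *Hspb7* and *Dnajc2*, lower. Leaving out either control library called 0 members, with 0.0492 and 0.0495% of all genes called.

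Partner and related genes gave the same count. They were 62 genes outside the members: heat shock factors, partners of HSP70 and HSP90, and chaperonin and prefoldin subunits. Lectin chaperones, disulfide isomerases and the small HSP-like genes *Odf1* and *Cryab* were also among them. Of the 62, 60 were tested and 0 passed an adjusted p of 0.05 by edgeR's quasi-likelihood test (0.0947% of all genes). By the same test 4 had an unadjusted p under 0.05 (6.67%, below the 7.79% of all genes). The 4 were *Ppid* and *Fkbp5*, immunophilin partners of HSP90, *Unc45a*, an HSP90 partner for myosin, and *Hsfy2*, a relative of the heat shock factors. *Ppid* had 39.3 and 69.4 TPM in knockout, against 38.8 and 32.9 TPM in control testis, with a log2 fold change of 0.59 (interval 0.11 to 1.07). *Unc45a* had 4.08 and 7.67 TPM in knockout, against 8.92 and 9.48 TPM in control testis, with a log2 fold change of -0.67 (interval -1.22 to -0.11). *Fkbp5* was at 0.38 (interval 0.10 to 0.66) and *Hsfy2* at 0.40 (interval 0.10 to 0.70).

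Of the 6 heat shock factor genes 4 were tested. *Hsf3* (2 and 0 reads in knockout, 2 and 8 in control testis) and *Hsf4* (1 and 1 reads in knockout, 7 and 6 in control testis) had too few reads. *Hsf1*, the stress-responsive factor, had 16.7 and 28.2 TPM in knockout, against 22.9 and 22.3 TPM in control testis. *Hsf2*, which acts in mouse spermatogenesis, had 21.79 and 23.38 TPM in knockout, against 25.7 and 23.7 TPM in control testis. *Hsf5* was the highest on average after *Hsfy2*, with 105 and 125 TPM in knockout and 119 and 119 TPM in control testis. Their log2 fold changes were -0.02, -0.10 and -0.03. For *Hsf1* the knockout libraries lay on both sides of the control libraries.

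Among the partner lists, all 9 subunits of TRiC, the chaperonin of the cytosol that folds actin and tubulin, had estimates above 0, between 0.03 and 0.17, with 0 past the threshold, though 7 were above 0 with either knockout library left out and 8 without control replicate 2. *Tcp1* was the most abundant of them, with 1383 and 1452 TPM in knockout, against 1396 and 1318 TPM in control testis. *Cct6b*, its testis subunit, had 382 and 371 TPM in knockout and 373 and 360 TPM in control testis. The median log2 fold change was 0.09 for TRiC, 0.01 for 15 partners of HSP70, -0.01 for 16 partners of HSP90 and -0.08 for 6 prefoldin subunits. The 15 partners of HSP70 take in *Hspbp1*, which is itself a member. For the lectin chaperones and disulfide isomerases of the endoplasmic reticulum the median was 0.03. Their testis members *Clgn* (calmegin), *Calr3* and *Pdilt*, which sperm proteins need to fold, had log2 fold changes of 0.05, 0.03 and 0.19.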

How the data were processed

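Poly(A) RNA from testis (4 libraries) was sequenced in paired ends of 150 bp. Trimming and alignment to the mouse genome (GRCm38, mm10) were done by the authors in CLC Genomics Workbench with standard parameters. The deposited counts are whole numbers of reads that fell on exons, given per gene. The authors also deposited TPM, of which the control columns were read; for the knockout libraries TPM was computed from the deposited counts and exon lengths, and the same computation returned the deposited control values to within 1.1e-10. The table has 67 columns with values of single libraries, and 58 of them were left out. The 6 columns of the authors' own comparison (group mean, fold changes, p-values and their adjustments) were not used either. The knockout columns share a heading, so neither is tied to a sample.

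Counts were fitted in R 4.3.3 with edgeR 4.0.16 (filterByExpr with a minimum of 10 reads, TMM scaling, quasi-likelihood test of genotype without covariates, Benjamini-Hochberg adjustment over all genes tested, threshold 0.05). The standard error is the log2 fold change divided by the root of F, and intervals are at 95%. Alternatives used limma 3.58.1 and DESeq2 1.42.0. The common biological coefficient of variation was 15.3%. Log2 levels per library used a prior of 0.5 CPM, and log2 TPM a pseudocount of 0.1. The procedure was tested on simulated data. Promoter windows came from RefSeq, names and coordinates from the deposited table, and figures were drawn with Python 3.11.15 and matplotlib 3.10.9.

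The members and lists were chosen with earlier results of these data known. Named genes were the testis HSP70 genes, other members known from germ cells, the top 3 of each family by mean TPM, the 8 members with the smallest p, heat-inducible and organelle chaperones, and in each partner list the top 2 by mean TPM and any past the threshold. Further members and partners, such as *Dnajb4*, *Dnajc15*, *Hspa4*, *Ppid*, *Cct6b*, *Calr3*, *Pdilt*, *Hsf1* and *Bag3*, were named after their values were seen. Members not named are given by counts and ranges.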

Additional observations from a re-analysis of the deposited data

How the results depend on the processing

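The count of members past the threshold stayed at 0 under DESeq2, limma voom, RLE scaling, no TMM, no filter, 10 reads in every library and an adjusted p of 0.1, and was 1 by the likelihood ratio test. Over all genes it was 15, against 374 by the likelihood ratio test, 175 by DESeq2, 52 without a filter, 41 without TMM and 53 at an adjusted p of 0.1. Leaving out one library gave 8 to 3890 genes, 0 to 24 members and 0 to 15 partner genes. With one library left out the log2 fold change ran from 0.0395 to 0.18 for *Hspa2*, -0.58 to 0.16 for *Hspa1l* and -0.014 to 0.18 for *Hspa4l*. No paired analysis was possible because both knockout columns carry the same replicate heading. Counts of unique reads were not run, since they were mapped for the control libraries only. With 2 libraries per genotype the spread between the knockout libraries limits what could be called.

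Estimates near 0 changed sign with the processing. DESeq2 gave *Hspa1a* 0.0040, *Dnaja3* 0.0037 and *Dnajc4* 0.0041, and RLE scaling gave them 0.0021, 0.0017 and 0.0021. Requiring 10 reads in every library gave *Pfdn5* -0.00045 and *Odf1* -0.0033. Limma voom gave *Dnajc5b* -0.022, *Hspa1a* 0.0061, *Bag5* -0.0081, *Pfdn5* -0.034 and *Odf1* -0.099. No TMM gave *Dnajc5b* -0.020, *Bag5* -0.025, *Pfdn5* -0.037 and *Odf1* -0.053. With one library left out, the log2 fold changes that changed sign ran from -0.34 to 0.25 for *Dnajb3*, -0.070 to 0.31 for *Dnajb7*, -1.02 to 0.35 for *Dnajb8*, -0.37 to 0.33 for *Dnajc5b*, -0.34 to 0.67 for *Hspb9*, -0.15 to 0.011 for *Hspa5*, -0.11 to 0.28 for *Hsph1*, -0.11 to 0.10 for *Hspa1a*, -0.033 to 0.31 for *Dnajb1*, -0.35 to 0.059 for *Hspd1*, -0.077 to 0.52 for *Hspe1*, -0.34 to 0.021 for *Hspa13*, -0.37 to 0.24 for *Dnajb9*, -0.0999 to 0.0098 for *Dnajc3*, -0.026 to 0.018 for *Dnaja3*, -0.39 to 0.11 for *Dnaja4*, -0.21 to 0.18 for *Dnajc4* and -0.11 to 0.14 for *Hsp90ab1*. They ran from -0.50 to 0.20 for *Dnajb4*, -0.24 to 0.33 for *Dnajc15*, -0.21 to 0.30 for *Dnajc18* and -0.022 to 0.10 for *Dnajb6*. Among the partners they ran from -0.062 to 0.00094 for *Hsf5*, -0.46 to 0.29 for *Bag1*, -0.21 to 0.20 for *Bag5*, -0.098 to 0.16 for *Fkbpl*, -0.037 to 0.21 for *Tcp1*, -0.35 to 0.29 for *Pfdn5*, -0.076 to 0.19 for *Pfdn1*, -0.63 to 0.44 for *Odf1*, -1.001 to 0.41 for *Cryab*, -0.26 to 0.18 for *Hsf1*, -0.21 to 0.0029 for *Hsf2*, -0.19 to 0.059 for *Bag3*, -0.17 to 0.21 for *Calr3*, -0.12 to 0.24 for *Cct6b* and -0.017 to 0.37 for *Pdilt*. The cause of these turns was not tested.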
